A study of Homo sapiens with 28 samples.

Results

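Acetylation of lysine 9 of histone H3 (H3K9ac) was profiled by ChIP-seq in EPC2 cells, a line of human esophageal epithelium made immortal for culture, in 4 treatments with 1 library each. Its members were the regions of the authors' 4 H3K9ac peak lists, taken by chromosome, start and end, and rows without a q value were left out. The lists held 206721 regions, of 603289 regions in all 16 ChIP lists, and merged across libraries to 75522. The cells had received IL-13 at 100 ng/ml together with vitamin D at 100 nM, vitamin D at 100 nM alone, IL-13 at 100 ng/ml alone, or neither agent. All cells had been seeded at high confluency in KSFM medium, and treatment lasted 6 h, per the labels. The labels do not name the form of vitamin D or a vehicle. The same treatments were profiled for H3K4me3, H3K27ac and, in 12 further samples, RNA. STAT6 binding was profiled with and without IL-13, and binding of the vitamin D receptor VDR with and without vitamin D. EPC2 is a single line, so donors were not compared, and with 1 library per treatment no test between treatments was possible. In bulk chromatin, fewer cells with the mark and less of it per cell cannot be told apart.

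H3K9ac is laid down by acetyltransferases of the GCN5 and PCAF family, is removed by histone deacetylases, and is read by proteins with bromodomains or YEATS domains. It marks the starts of active genes, where it overlaps H3K4me3, and active enhancers, where it overlaps H3K27ac. Vitamin D acts through VDR, a nuclear receptor whose classic target is CYP24A1, the enzyme that degrades active vitamin D. IL-13 is a type 2 cytokine of eosinophilic esophagitis and acts through the transcription factor STAT6.

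The following promoters are shown because the results turn on how these genes carried the mark. Each is the 250 bases before the gene start in RefSeq's GRCh38.p14 sequence, written from 5′ to 3′ on the gene's strand. The peak files use hg19, so these coordinates do not apply to the peaks. The promoter of CISH, an inhibitor of JAK-STAT signalling, lies at chr3:50611775-50612024 on the minus strand, and its capitals mark 4 matches to the STAT letters TTCNNNGAA. SPRR3, a cornified envelope protein, lies at chr1:153001499-153001748 on the plus strand, and its capitals mark the letters TATAAA, whose first base is at position -29 from the start. CD14, a co-receptor for bacterial lipopolysaccharide, lies at chr5:140633176-140633425 on the minus strand. KRT5, the keratin of basal epithelial cells, lies at chr12:52520395-52520644 on the minus strand.
CISH: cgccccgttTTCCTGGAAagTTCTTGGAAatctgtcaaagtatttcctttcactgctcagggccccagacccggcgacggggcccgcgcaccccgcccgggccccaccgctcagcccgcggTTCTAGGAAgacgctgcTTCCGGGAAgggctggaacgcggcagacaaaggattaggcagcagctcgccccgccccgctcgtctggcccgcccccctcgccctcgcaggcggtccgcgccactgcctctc
SPRR3: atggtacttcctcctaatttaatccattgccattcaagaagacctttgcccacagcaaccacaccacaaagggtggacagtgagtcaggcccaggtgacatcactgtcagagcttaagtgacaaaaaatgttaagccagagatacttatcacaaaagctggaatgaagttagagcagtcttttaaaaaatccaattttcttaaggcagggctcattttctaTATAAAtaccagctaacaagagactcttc
CD14: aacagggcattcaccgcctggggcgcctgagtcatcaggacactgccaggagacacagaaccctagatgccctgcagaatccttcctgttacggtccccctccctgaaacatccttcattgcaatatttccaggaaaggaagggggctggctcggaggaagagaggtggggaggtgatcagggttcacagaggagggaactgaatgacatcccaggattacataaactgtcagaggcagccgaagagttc
KRT5: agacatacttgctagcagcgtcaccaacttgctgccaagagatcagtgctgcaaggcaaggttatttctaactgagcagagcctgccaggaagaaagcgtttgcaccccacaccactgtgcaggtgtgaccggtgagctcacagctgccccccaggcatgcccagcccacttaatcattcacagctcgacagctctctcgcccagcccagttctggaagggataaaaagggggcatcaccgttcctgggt

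CISH held 26 CpG dinucleotides in this window, KRT5 held 6, CD14 held 5 and SPRR3 held 0. TTCNNNGAA reads the same on both strands and occurred in 6.78% of 27305 RefSeq promoters of this length. CD14 also held 1 match, left in small letters, with its first base at position -123. The STAT form with 4 bases between TTC and GAA occurred in 5.35% of promoters and in none of those printed, CISH included. Letters of a vitamin D response element occurred in 0.187% of promoters and in none of those printed. Binding of STAT6 or VDR to these letters was not tested. TATAAA within the last 50 bases, on the gene's strand, occurred in 2.92% of them. The CYP24A1 promoter is named only.

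Gene starts were the commonest place for the mark, and most H3K9ac regions also lay under H3K27ac. Pooled over the 4 libraries, 38.6% of the listed regions were annotated as promoter by the authors, 50.5% overlapped an H3K4me3 region of the same treatment and 88.4% an H3K27ac region. Of regions annotated as promoter, 94.9% overlapped H3K4me3 with both agents, 95.5% with vitamin D, 94.6% with IL-13 and 95.7% in untreated cells. Away from promoters, H3K4me3 was found under 22.9% of regions with both agents, 22.0% with vitamin D, 21.3% with IL-13 and 23.4% in untreated cells. H3K27ac covered 80.3% of the non-promoter regions with both agents, 82.9% with vitamin D, 79.3% with IL-13 and 95.4% in untreated cells. The back-computed background of the H3K27ac libraries was 0.565 with both agents, 0.731 with vitamin D and 0.512 with IL-13, against 1.40 in untreated cells, and its part in that higher share was not tested.

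The H3K9ac libraries were shallow. The pileup, the number of fragments stacked at a region's highest summit, was a whole number in 100% of the H3K9ac summits used. Its median was 6 with both agents, 6 with vitamin D, 6 with IL-13 and 7 in untreated cells, against 39 to 53 in the 4 H3K4me3 libraries. The lists held 52749 regions with both agents, 53630 with vitamin D, 50695 with IL-13 and 49647 in untreated cells, and the back-computed background pileup lay between 0.389 and 0.485. Of the 75522 merged regions, 39537 (52.4%) were listed in 1 library and 18743 (24.8%) in all 4. Regions listed in all 4 had a median width of 1220 bases and were 55.8% promoter, whereas those listed in 1 library had a median width of 161 bases and were 12.4% promoter.

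Several of the 10 widest regions lay at or beside keratin and other epithelial genes, and the rest lay at SYT8, PLEC, CTDSP1 and ZMYND8. In untreated cells the widest was 8904 bases, beside the keratin pseudogene KRT42P (chr17:39805582-39814485, hg19), with pileups of 24 with both agents, 24 with vitamin D, 25 with IL-13 and 27 untreated. The KRT5 region (chr12:52912877-52919042) covered 6166 bases with pileups of 17 with both agents, 21 with vitamin D, 20 with IL-13 and 19 untreated. PKP3, a desmosomal plakophilin, had a region of 5382 bases (chr11:391031-396412) with pileups of 15 with both agents, 22 with vitamin D, 23 with IL-13 and 22 untreated, and AHNAK one of 5303 bases (chr11:62310134-62315436) with 23 with both agents, 22 with vitamin D, 24 with IL-13 and 22 untreated. By contrast, 9 of the 10 tallest untreated regions lay between genes, and the tallest (chr1:121483989-121485501) reached 229 with IL-13, against 206 in untreated cells. That position also had untreated pileups of 196 for H3K4me3, 239 for H3K27ac, 287 for VDR and 271 for STAT6, so it stood out in each library type.

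The marked genes were those of an epithelial line. H3K9ac lay within 1 kb of the start of 18 of 20 basal epithelial genes and of 20 of 20 genes used in every cell. It lay at 3 of 11 fibroblast, 2 of 14 leukocyte, 2 of 9 endothelial and 1 of 10 melanocyte and nerve markers. Of those markers, 1 fibroblast and 1 leukocyte gene reached 1 RPKM in untreated cells in the authors' deposited table, and no endothelial, melanocyte or nerve marker did.

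Most gene starts with RNA carried the mark, and the share followed the RNA level. In untreated cells a region lay at 7.32% of starts with at most 0.1 RPKM in the authors' deposited table, 43.7% from 0.1 to 1, 79.0% from 1 to 5, 91.5% from 5 to 20, 95.4% from 20 to 100 and 92.0% over 100. Over the same steps of the authors' deposited table the median pileup at marked starts was 7, 8, 9, 10, 11 and 12. The other treatments gave the same order up to 100 RPKM. Of 23253 gene starts, 12921 had a region in at least 1 list and 10881 in all 4.

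**Figure D1:**
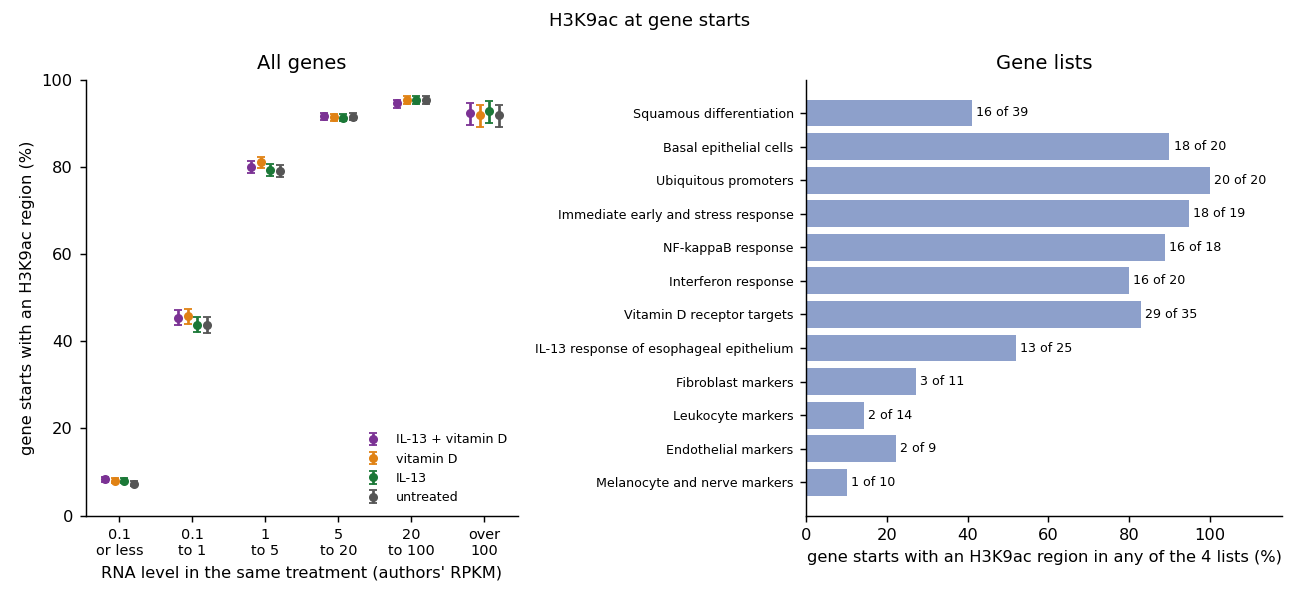
Left, the percentage of gene starts with an H3K9ac region within 1 kb (vertical axis) by RNA level in the same treatment (horizontal axis, RPKM of the authors' deposited table), 1 library per point with exact binomial 95% intervals for counting error. Right, the percentage of gene starts per list with a region in any of the 4 libraries; squamous differentiation genes (16 of 39) stood below basal epithelial genes (18 of 20).

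Terminal differentiation genes departed from that pattern. Of 28 squamous differentiation genes above 20 RPKM in untreated cells in the authors' deposited table, 13 had H3K9ac at the start and 15 had none in any library, whereas all 17 basal genes above that level had it. Over the whole genome 102 of 2836 genes above 20 RPKM lacked the mark in all 4 libraries. SPRR1A, a cornified envelope precursor, reached 500 RPKM with both agents, 932 with vitamin D, 710 with IL-13 and 1256 untreated in the authors' deposited table with no H3K9ac region at its start. SPRR3 reached 535 RPKM with both agents, 830 with vitamin D, 755 with IL-13 and 1107 untreated in the authors' deposited table, and had an untreated H3K27ac pileup of 20. SBSN (suprabasin), KRT10 and KRT4 (keratins of differentiated layers) and LTA4H (leukotriene A4 hydrolase) were unmarked too. At the starts used for KRT10, KRT4 and LTA4H no untreated H3K4me3 or H3K27ac region was listed either. Whether their RNA came from other starts was not tested. SPRR2A, SERPINB3 and other near-identical copies also appeared among the unmarked starts, and their counting is uncertain.

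The unmarked starts had fewer CpG dinucleotides in the median. Of the genes above 20 RPKM with a RefSeq promoter, 68 were marked in none of the libraries, 88 in 1 to 3 and 2019 in all 4, and the median number of CpG dinucleotides in the 250 bases before the start was 4, 10 and 23. TATAAA lay in the last 50 bases of 13 of the 68 unmarked promoters (19.1%, exact 95% interval 10.6 to 30.5%), of 9 of the 88 (10.2%) and of 45 of the 2019 (2.23%). An untreated H3K4me3 region lay at 17.6% of the 68 and at 99.6% of the 2019, and an H3K27ac region at 38.2% and 100%. The SPRR3 promoter printed above is one of the 68. Among the unmarked, LGALS3 held 32 CpG dinucleotides, so low CpG content was not shared by each.

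The main question of the design was how the mark differed with each agent. Each agent was present and absent on 2 backgrounds, which gives 2 pairs of libraries that share none: for vitamin D, vitamin D against untreated and both agents against IL-13, and for IL-13, IL-13 against untreated and both agents against vitamin D. Pileups were scaled by the median ratio at regions shared by all libraries, and a region was called where it passed 1.5-fold with a pileup of at least 10 in the taller library. Where a library listed no region, its pileup was taken as 4, the lowest height in any list. Intervals are exact binomial 95% intervals of the fragments stacked and cover counting error only. Where a region was unlisted, its interval uses the assumed 4 and not a count of fragments.

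Single regions were past 1.5-fold about as often in one direction as in the other. With vitamin D against untreated, 1205 of 10760 regions (11.2%) were higher and 1083 (10.1%) lower, and with both agents against IL-13, 1027 of 9815 (10.5%) were higher and 964 (9.82%) lower. With IL-13 against untreated, 1016 of 10102 regions (10.1%) were higher and 1233 (12.2%) lower, and with both agents against vitamin D, 1007 of 10579 (9.52%) were higher and 1226 (11.6%) lower. With both agents against untreated, 1103 of 10387 (10.6%) were higher and 1160 (11.2%) lower. The split between directions depended on the scaling. Scaling by background put the split at 523 higher and 2573 lower for vitamin D against untreated, 1316 and 764 for both against IL-13, 287 and 3510 for IL-13 against untreated, and 429 and 2650 for both against untreated, since it shifts all log2 ratios of these pairs by -0.24, 0.09, -0.37 and -0.28. A q value limit of 5 on the −log10 scale put it at 417 higher and 617 lower for both against IL-13, 821 and 506 for IL-13 against untreated, and 605 and 441 for both against vitamin D.

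Few single regions were past 1.5-fold the same way in both pairs of an agent. For vitamin D, 73 of 7622 regions (0.958%) were higher in both pairs and 81 (1.06%) lower, while 56 (0.735%) and 53 (0.695%) were past 1.5-fold in opposite directions. For IL-13, 81 of 7728 regions (1.05%) were higher in both pairs and 84 (1.09%) lower, while 53 (0.686%) and 47 (0.608%) were past it in opposite directions. Over 19983 regions the log2 ratios of the 2 pairs had a Pearson r of 0.05 for vitamin D and 0.07 for IL-13, given as a description. Background scaling changed the splits to 36 higher and 144 lower for vitamin D and to 20 higher and 243 lower for IL-13. A −log10 q of at least 5 changed them to 27 higher and 48 lower for vitamin D and to 48 higher and 26 lower for IL-13, and the mean over summits to 55 higher and 31 lower for IL-13.

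With vitamin D, H3K9ac was listed over a much longer stretch of the CYP24A1 neighbourhood. Within the gene and 50 kb on either side (gene at chr20:52769988-52790516, hg19), 17999 bases were listed as H3K9ac with both agents and 19985 with vitamin D, against 3408 with IL-13 and 3461 in untreated cells. The list held 41 regions there with both agents and 37 with vitamin D, against 10 with IL-13 and 11 untreated. After division by each library's listed bases the log2 ratio was 2.45 for vitamin D against untreated and 2.32 for both agents against IL-13, where the SD over all genes was 0.24 and 0.25. The libraries with vitamin D stood apart from those without it in both the number and the length of regions.

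Merged across libraries, 48 regions lay in that window. Of these, 35 were listed in at least 1 of the libraries with vitamin D and in neither other library. Only 13 were listed in both libraries with vitamin D and in neither other, and 2 in all 4. Over all merged regions, 52.4% were listed in 1 library. Most of the 48 lay 32.2 to 70.0 kb downstream of the CYP24A1 start, and fewer around the start itself. At the start the pileup was 5 with both agents and 8 with vitamin D, and no region was listed with IL-13 or in untreated cells. VDR regions of vitamin D-treated cells overlapped 14 of the 48, of which 11 were listed in both libraries with vitamin D, 4 with IL-13 and 4 untreated. The region at chr20:52749373-52752092, 38.4 kb downstream, had pileups of 12 with both agents and 11 with vitamin D, against none listed with IL-13 and 5 untreated. Its log2 ratio was 1.11 (interval -0.54 to 2.98) for vitamin D against untreated and 1.56 (-0.17 to 3.64) for both against IL-13; both intervals include 0. H3K27ac there had pileups of 33 with both agents and 41 with vitamin D, against 15 with IL-13 and 35 in the deeper untreated library.

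**Figure D2:**
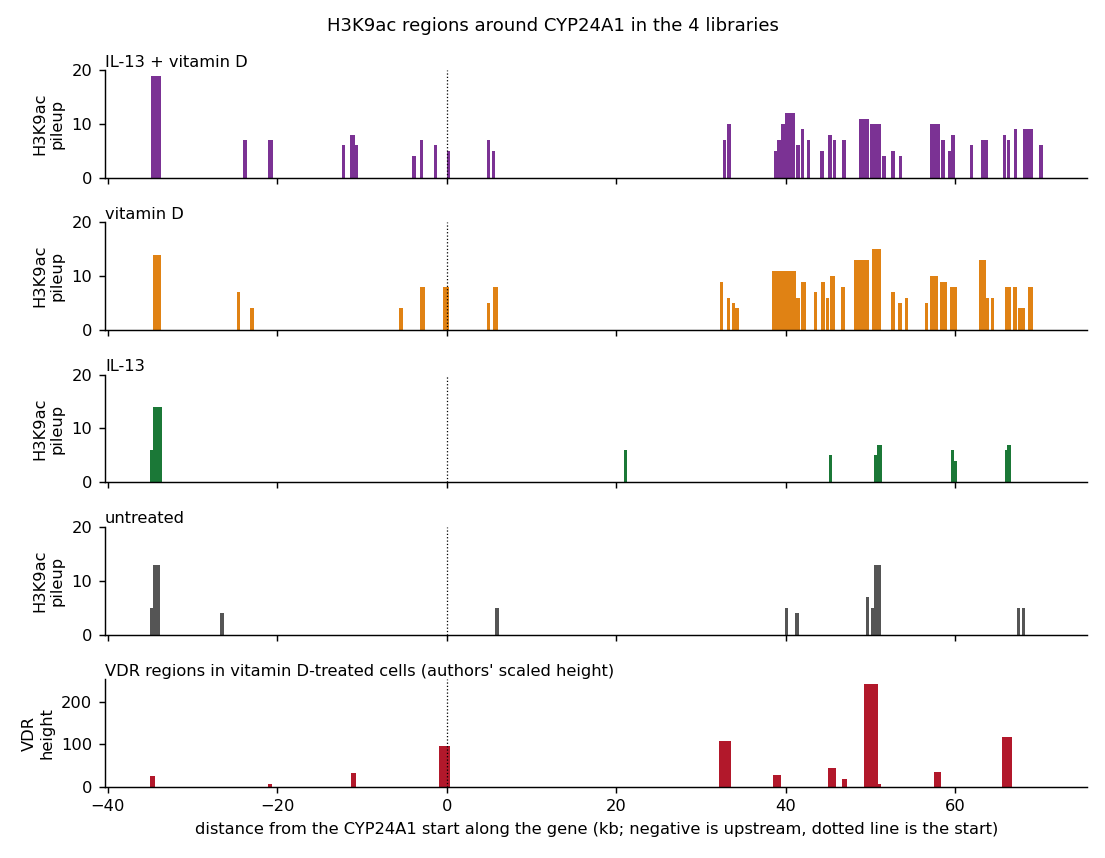
H3K9ac regions around CYP24A1 in the 4 libraries (pileup at the highest summit, vertical axis) and VDR regions with vitamin D (height as scaled by the authors) by distance in kb from the gene start (horizontal axis). Each bar is 1 region, drawn at no less than a fixed minimum width; the 41 regions with both agents and 37 with vitamin D form a block downstream of the start that is sparse with IL-13 (10 regions in the window) and in untreated cells (11).

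CYP24A1 RNA followed the same division of the libraries. The authors' deposited table gave 463 RPKM with both agents and 560 with vitamin D, against 0.281 with IL-13 and 0.476 untreated. Its log2 fold change in the authors' deposited table was 9.92 for vitamin D against untreated (the adjusted p is listed as 0). Under every window setting tried, CYP24A1 ranked between 1 and 3 by the mean of its 2 log2 ratios.

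Other neighbourhoods had more H3K9ac with vitamin D in both pairs. Of 6002 genes with at least 4 kb listed on average, 33 (0.55%) were past 1.5-fold higher in both pairs, in 24 separate neighbourhoods, and 1 (0.0167%), FSTL4, was lower in both. The Pearson r between the pairs was 0.29 over these genes, whose windows overlap, so genes are not independent. The 4 kb average was taken over all 4 libraries, from the same values as were compared. A window could thus enter through the libraries where it was high. CYP24A1 itself had 3.41 kb with IL-13 and 3.46 kb untreated. All 33 windows held a VDR region of vitamin D-treated cells, against 70.6% of the 6002, with a median of 3 against 1. STAT6 regions not listed in untreated cells were also commoner there, in 18 of the 33 (54.5%) against 26.9%. H3K27ac bases were higher in both pairs at all 33, against 31.9% of the 6002, and past 1.5-fold in both pairs at 4 (12.1%) against 0.15%. H3K27ac was not used to choose the windows, but its untreated library was deeper than the rest. The settings tried gave between 2 (2-fold) and 87 (a minimum of 2 kb) higher windows and between 0 and 29 (a minimum of 2 kb) lower ones.

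ETNK2, an ethanolamine kinase, had 5.70 kb listed with both agents and 7.57 kb with vitamin D, against 1.78 kb with IL-13 and 3.88 kb untreated, with log2 ratios of 0.88 against untreated and 1.59 against IL-13. Its RNA was 25.8 RPKM with both agents and 42.4 with vitamin D, against 7.40 with IL-13 and 12.9 untreated in the authors' deposited table. Mark and RNA stood in the same order over the 4 treatments, highest with vitamin D and lowest with IL-13. GPCPD1, a glycerophosphocholine phosphodiesterase, had 6.62 kb with both agents and 8.51 kb with vitamin D, against 3.50 kb with IL-13 and 4.10 kb untreated (log2 ratios 0.97 and 0.84). Its RNA in the authors' deposited table was 30.51 RPKM with both agents and 24.03 with vitamin D, against 13.11 with IL-13 and 11.02 untreated. RASD2, a small GTPase, had 6.53 kb with both agents, 4.05 kb with vitamin D, 3.26 kb with IL-13 and 2.20 kb untreated. It was the 1 gene of these windows also past 1.5-fold in both IL-13 pairs, with log2 ratios of 0.80 and 0.92 for vitamin D and 0.66 and 0.78 for IL-13, and its RNA was 7.17 RPKM with both agents, 6.25 with vitamin D, 3.22 with IL-13 and 2.04 untreated in the authors' deposited table.

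Some windows with more of the mark were those of genes with little RNA. A window also takes in 50 kb on either side, and the RNA of other genes there was not examined. MCHR1, a neuropeptide receptor, had 9.09 kb with both agents and 12.1 kb with vitamin D, against 4.64 kb with IL-13 and 6.33 kb untreated, while its RNA was at most 0.0469 RPKM in the authors' deposited table. Its window held 8 VDR regions. LOC151475 had 9.25 kb with both agents and 13.4 kb with vitamin D, against 3.16 kb with IL-13 and 6.99 kb untreated, with 6 VDR regions. FSTL4, the window lower in both pairs, had 4.81 kb with both agents and 3.89 kb with vitamin D, against 6.92 kb with IL-13 and 5.58 kb untreated, and its H3K27ac was also lower in both pairs.

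**Figure D3:**
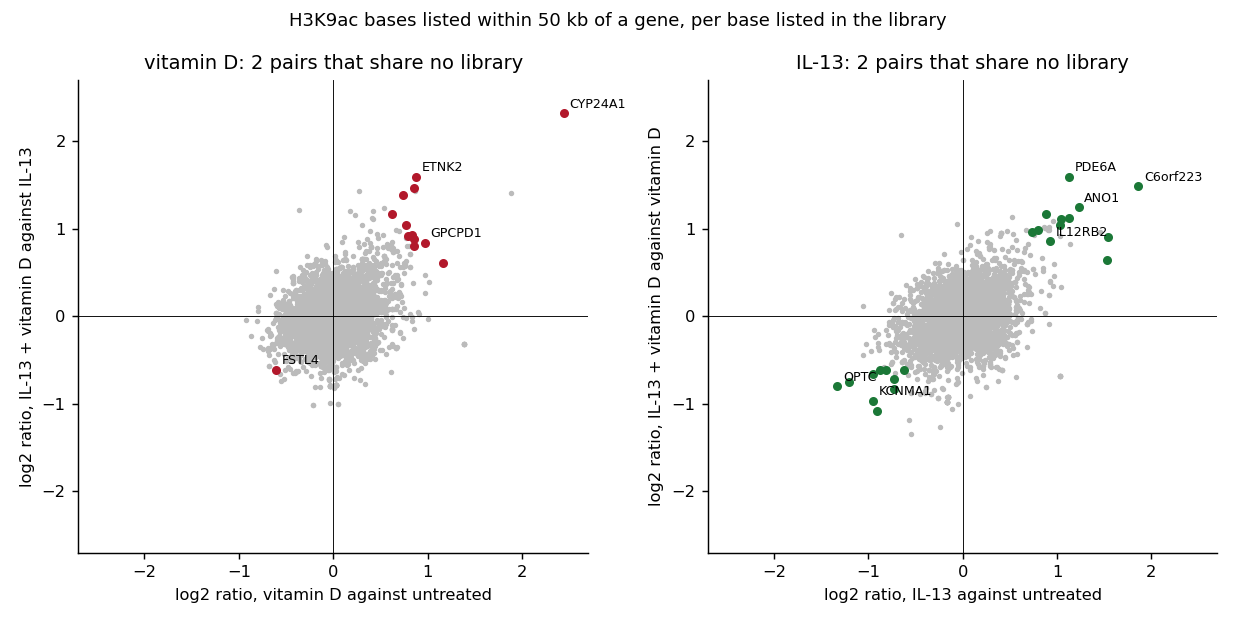
Log2 ratio of H3K9ac bases listed within 50 kb of a gene, per base listed in the library, in the pair against untreated cells (horizontal axis) and in the pair on the other agent's background (vertical axis), for vitamin D (left) and IL-13 (right). Each point is 1 of 6002 genes; coloured points are the leading genes of separate windows past 1.5-fold in both pairs, up to 12 per direction, and CYP24A1 (2.45 and 2.32) stands farthest from the rest on the left.

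CD14 showed a smaller difference. Its window listed 8312 bases with both agents and 8191 with vitamin D, against 5252 with IL-13 and 5512 untreated, with log2 ratios of 0.49 and 0.58, short of 1.5-fold. A region 39.1 kb downstream (chr5:139973576-139974137), over a VDR region, had pileups of 10 with both agents and 11 with vitamin D and was not listed in the other libraries (log2 ratios 1.43, interval -0.33 to 3.53, and 1.29, interval -0.50 to 3.42). At the CD14 start the pileup was 12 with both agents and 8 with vitamin D, against 6 with IL-13 and 7 untreated. CD14 RNA was 216 RPKM with both agents and 132 with vitamin D, against 3.67 with IL-13 and 2.62 untreated in the authors' deposited table.

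The 73 regions higher with vitamin D in both pairs overlapped VDR binding more often than the regions tested. VDR regions of vitamin D-treated cells overlapped 30 of the 73 (41.1%, exact 95% interval 29.7 to 53.2%), against 6 of the 81 lower regions (7.41%) and 1259 of the 7622 tested (16.5%). For VDR regions not listed without vitamin D it was 16 of the 73 (21.9%, 13.1 to 33.1%) against 12.8% of those tested, and the remainder of the 30 had VDR listed without vitamin D too. H3K27ac was past 1.5-fold higher in both pairs at 7 of the 73 (9.59%), against 0 of the 81 and 0.315% of all tested, with a median log2 ratio of 0.26, against -0.03 for the 81 lower and 0.03 for all tested. The 73 lay less often at promoters, 47.9% against 73.8% of those tested. 14 of the 73 were unlisted in at least 1 library, so their ratios rest on the assumed height of 4.

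The 12 highest of them were led by a region in an intron of PLXNA2, a semaphorin receptor (chr1:208394768-208395219), with pileups of 10 with both agents and 14 with vitamin D and none listed otherwise (log2 1.78, interval 0.11 to 3.84, and 1.29, interval -0.50 to 3.42). Next to it stood a region 8.88 kb from MOB2, between MOB2 and the lysosomal protease gene CTSD (chr11:1794379-1794833), with pileups of 11 with both agents and 10 with vitamin D and none listed otherwise. The IFITM10 promoter (chr11:1770460-1771594) had pileups of 14 with both agents and 11 with vitamin D, against 4 with IL-13 and 6 untreated. These regions were ranked by their vitamin D ratios, so being higher with vitamin D follows from the choice. The MOB2 intervals include 0 in both pairs (-0.50 to 3.42 and -0.32 to 3.54). The IFITM10 interval includes 0 for vitamin D against untreated (-0.72 to 2.56) but not for both against IL-13 (0.11 to 3.84). LOC100652730 (chr20:61404760-61405450) had 15 with both agents and 10 with vitamin D, against none listed with IL-13 and 6 untreated, over a VDR height of 150. A region 57.2 kb from GPCPD1 (chr20:5648833-5650397) had 15 with both agents and 10 with vitamin D, against 5 with IL-13 and 5 untreated. The others lay near ZNF429, CYP24A1, BCAS1, SNORD96B, RNU4ATAC and ADAT2.

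The lowest with vitamin D lay mostly at promoters or in introns, and none of the 12 overlapped a VDR or STAT6 region. TEAD4, a transcription factor of the Hippo pathway, had promoter pileups (chr12:3068594-3069742) of 7 with both agents and 4 with vitamin D, against 12 with IL-13 and 11 untreated (log2 -1.49, interval -3.60 to 0.26, and -0.81, interval -2.39 to 0.65). METTL3, the catalytic subunit of the N6-methyladenosine RNA methyltransferase, had 7 with both agents and 8 with vitamin D, against 14 with IL-13 and 15 untreated. An intron of TGFA, an EGF receptor ligand, had 5 with both agents and 5 with vitamin D, against 10 with IL-13 and 10 untreated. The log2 intervals of all 12 lower regions included 0 in both pairs, so none of these differences was beyond counting error.

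Regions bound by VDR were higher with vitamin D when their fragments were summed. Over 2115 H3K9ac regions that overlapped a VDR region not listed without vitamin D, the summed pileup was 20384 with both agents, 21680 with vitamin D, 19152 with IL-13 and 20433 untreated. Relative to 16229 regions with neither factor, the log2 ratio was 0.07 higher (interval 0.04 to 0.10) for vitamin D against untreated and 0.07 higher (0.04 to 0.10) for both agents against IL-13. The plain log2 ratio of the sums was larger over taller VDR regions. Over 4 groups from the lowest to the tallest VDR height it was 0.02, 0.05, 0.05 and 0.11 for vitamin D against untreated and 0.01, 0.05, 0.08 and 0.12 for both agents against IL-13. Promoters made up 47.1, 42.4, 36.8 and 27.5% of these groups, against 58.8% of regions with neither factor. The part of location in the ratios was not tested. At the same 2115 regions the IL-13 ratios were -0.05 against untreated and -0.04 for both against vitamin D. Regions where VDR was listed without vitamin D as well (581) gave 0.13 for vitamin D against untreated and 0.15 for both against IL-13.

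The share of VDR sites that touched an H3K9ac region is read from lists that covered 23.1 Mb with both agents and 24.7 Mb with vitamin D, against 21.8 Mb with IL-13 and 23.3 Mb untreated, and the part of that length in the shares was not tested. Of 7653 VDR regions not listed without vitamin D, 33.6% touched an H3K9ac region with both agents and 37.3% with vitamin D, against 28.8% with IL-13 and 32.6% untreated. Over the tallest VDR regions (1793) the shares were 37.9% with both agents and 42.3% with vitamin D, against 30.01% with IL-13 and 33.3% untreated. Each share was higher with vitamin D than in the library it was paired with, and lower with IL-13 than without.

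With IL-13, H3K9ac was listed over more bases around a set of genes that mostly had STAT6 binding nearby. Between the libraries with and without IL-13, 33 of 6002 genes (0.55%) had more H3K9ac bases past 1.5-fold in both pairs, in 19 separate neighbourhoods, and 11 (0.183%) had fewer, in 10. That split depended on the setting: it was 24 higher and 34 lower without division by library bases, 33 higher and 30 lower at a −log10 q of at least 5, and 86 higher and 59 lower with a minimum of 2 kb. The Pearson r between the 2 pairs was 0.34 over genes. The 4 kb average over all 4 libraries again let windows enter through the libraries where they were high. C6orf223, for 1, had 2.80 kb with vitamin D and 1.98 kb untreated. A STAT6 region of IL-13-treated cells not listed in untreated cells lay in 32 of the 33 higher windows (97.0%), against 2 of the 11 lower windows (18.2%) and 26.9% of all. H3K27ac was higher in both pairs at 32 of the 33 (97.0%, against 42.9% of all) and past 1.5-fold at 15 (45.5%, against 0.566%).

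ANO1, a calcium-activated chloride channel, had the third highest mean ratio. Its window (gene at chr11:69931516-70035652, hg19) listed 11.97 kb with both agents and 11.77 kb with IL-13, against 5.39 kb with vitamin D and 5.36 kb untreated. It held 29 regions with both agents and 27 with IL-13, against 14 with vitamin D and 13 untreated. The log2 ratio was 1.23 for IL-13 against untreated and 1.24 for both against vitamin D, and the window held 5 STAT6 regions. A region annotated as ANO1 promoter, 5.50 kb from the start used here (chr11:69924392-69926013), had pileups of 13 with both agents and 16 with IL-13, against 7 with vitamin D and 6 untreated, with log2 ratios of 1.46 (interval 0.04 to 3.10) and 0.94 (-0.49 to 2.51). At the start itself the pileup was 6 with both agents and 6 with IL-13, and none was listed with vitamin D or in untreated cells. ANO1 RNA was 41.0 RPKM with both agents and 53.7 with IL-13, against 4.53 with vitamin D and 7.31 untreated in the authors' deposited table. The libraries with IL-13 did not overlap those without it in any of these measures. The window and the promoter region were ranked by their H3K9ac ratios, so their order follows largely from that ranking.

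The dual oxidase locus on chromosome 15 also had more of the mark in both libraries with IL-13 than in those without it. DUOX1 is an enzyme that makes hydrogen peroxide at the epithelial surface, and DUOXA1 is its maturation factor. The DUOXA1 window listed 12.8 kb with both agents and 12.6 kb with IL-13, against 6.29 kb with vitamin D and 6.54 kb untreated, with log2 ratios of 1.04 and 1.11, and its H3K27ac bases gave 1.15 and 1.25. An intronic DUOX1 region over a STAT6 region (chr15:45447928-45450844) had pileups of 13 with both agents and 14 with IL-13, against 5 with vitamin D and 8 untreated. Its log2 intervals include 0 in both pairs (-0.50 to 2.32 and -0.15 to 3.27). This window and region were ranked by their H3K9ac ratios, so their order follows largely from that ranking. DUOXA1 RNA was 104 RPKM with both agents and 98.2 with IL-13, against 37.3 with vitamin D and 42.0 untreated in the authors' deposited table.

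Of the windows tested, 2 of 8 IL-13 response genes (ANO1 and CISH), 1 of 9 receptor, JAK and STAT genes and 0 of 8 NF-kappaB response genes were higher in both pairs. Over all 6002 genes tested, 33 (0.55%) were. C3orf18 lies next to CISH, and its window listed 12.9 kb with both agents and 15.6 kb with IL-13, against 6.31 kb with vitamin D and 7.62 kb untreated. The CISH window itself gave log2 ratios of 0.87 and 1.00. The CISH promoter printed above held 4 matches to the STAT letters with 3 bases between and 0 to the form with 4 bases between. At the CISH start the pileup was 13 with both agents and 17 with IL-13, against 10 with vitamin D and 9 untreated. The log2 ratio there was 0.97 for IL-13 against untreated and 0.43 for both against vitamin D. CISH RNA was 27.8 RPKM with both agents and 23.3 with IL-13, against 4.24 with vitamin D and 3.90 untreated in the authors' deposited table. IL12RB2, a subunit of the IL-12 receptor, listed 6.19 kb with both agents and 6.66 kb with IL-13, against 3.64 kb with vitamin D and 3.74 kb untreated. MAP3K14, the kinase of non-canonical NF-kappaB signalling, listed 11.3 kb with both agents and 10.7 kb with IL-13, against 6.10 kb with vitamin D and 6.58 kb untreated. Its RNA was 9.71 RPKM with both agents and 7.64 with IL-13, against 1.83 with vitamin D and 1.78 untreated in the authors' deposited table.

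The 2 largest mean ratios belonged to C6orf223 and PDE6A, genes with little RNA, and the fourth to NFRKB, with 9.44 RPKM with both agents and 9.04 with IL-13, against 8.73 with vitamin D and 8.84 untreated in the authors' deposited table. C6orf223 listed 7.34 kb with both agents and 6.75 kb with IL-13, against 2.80 kb with vitamin D and 1.98 kb untreated, with log2 ratios of 1.86 and 1.48 and at most 0.260 RPKM in the authors' deposited table. PDE6A, a phosphodiesterase of photoreceptors, listed 7.39 kb with both agents and 7.60 kb with IL-13, against 2.62 kb with vitamin D and 3.71 kb untreated, and reached at most 0.396 RPKM in the authors' deposited table. TACR2, a neurokinin receptor, listed 9.43 kb with both agents and 7.04 kb with IL-13, against 4.87 kb with vitamin D and 3.67 kb untreated, over 6 STAT6 regions. PAK2, a p21-activated kinase, listed 5.82 kb with both agents and 5.30 kb with IL-13, against 2.77 kb with vitamin D and 3.06 kb untreated. PAK2 RNA was higher than that of C6orf223, PDE6A and TACR2, with 31.4 RPKM with both agents and 34.2 with IL-13, against 17.5 with vitamin D and 18.3 untreated in the authors' deposited table. The RNA of other genes within these windows was not examined.

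FGFBP1, KCNMA1 and SPRY4 were among the 11 windows with less of the mark with IL-13 in both pairs. FGFBP1, a carrier protein for fibroblast growth factors, listed 4.11 kb with both agents and 3.46 kb with IL-13, against 7.38 kb with vitamin D and 8.51 kb untreated (log2 -1.21 and -0.75). FGFBP1 RNA was 63.4 RPKM with both agents and 101 with IL-13, against 171 with vitamin D and 224 untreated in the authors' deposited table. KCNMA1, a large-conductance potassium channel, listed 4.08 kb with both agents and 3.65 kb with IL-13, against 8.51 kb with vitamin D and 7.52 kb untreated. SPRY4, an inhibitor of receptor tyrosine kinase signalling, listed 3.64 kb with both agents and 3.96 kb with IL-13, against 6.90 kb with vitamin D and 6.97 kb untreated. In these 3 windows the libraries with IL-13 lay below both libraries without it, which follows largely from how the windows were chosen. H3K27ac was lower in both pairs at 6 of the 11 lower windows (54.5%, against 14.4% of all) and past 1.5-fold at 1.

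Single regions higher with IL-13 in both pairs overlapped STAT6 more often than those tested. STAT6 regions of IL-13-treated cells overlapped 17 of the 81 (20.99%, exact 95% interval 12.7 to 31.5%), against 2 of the 84 lower regions (2.38%) and 602 of the 7728 tested (7.79%). For STAT6 regions not listed in untreated cells it was 10 of the 81 (12.3%, 6.08 to 21.5%) against 4.21% of those tested, and the remainder of the 17 had STAT6 listed without IL-13 too. H3K27ac was past 1.5-fold higher in both pairs at 8 of the 81 (9.88%), against 0 of the 84 and 0.492% of all tested. Among the 12 highest, besides ANO1 and DUOX1, a region 22.8 kb from ACTL7B (chr9:111592701-111595435) over STAT6 had pileups of 16 with both agents and 14 with IL-13, against 7 with vitamin D and 7 untreated. The promoter of ECT2, an exchange factor for cell division (chr3:172468516-172469006), had 11 with both agents and 12 with IL-13, against none listed with vitamin D and 6 untreated, with no STAT6 region. An IL12RB2 intron (chr1:67821772-67822568) had 12 with both agents and 10 with IL-13, against 5 with vitamin D and 6 untreated. Of the 12, 2 had no gene start within 100 kb, and 1 of these ranked highest (chr16:46413223-46413430). It had pileups of 10 with both agents and 11 with IL-13 and none listed otherwise. The other lay at chrY:13460353-13460617. Both lay over STAT6 regions (heights 49 and 101) of places where STAT6 was listed without IL-13 too. The remaining regions lay near SNX29P2, LOC642846, EXT1, ECHDC2 and MMEL1. All 12 were ranked by their IL-13 ratios, so being higher with IL-13 follows from the choice. Their log2 intervals include 0 in both pairs, except that of ANO1 for IL-13 against untreated (0.04 to 3.10).

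The regions lowest with IL-13 were led by one 2.25 kb from SLC27A5, in an intron of ZBTB45 (chr19:59025678-59026389), with pileups of 6 with both agents and 7 with IL-13, against 19 with vitamin D and 13 untreated. Its log2 ratio was -0.84 (interval -2.41 to 0.59) for IL-13 against untreated and -1.61 (-3.23 to -0.23) for both against vitamin D. NFIL3, a basic leucine zipper repressor, had promoter pileups (chr9:94184994-94186068) of 7 with both agents and 5 with IL-13, against 13 with vitamin D and 13 untreated. SPG11 had 7 with both agents and 7 with IL-13 at its promoter, against 15 with vitamin D and 15 untreated, and CRK, an adaptor protein, 7 with both agents and 9 with IL-13, against 13 with vitamin D and 19 untreated. These 4 regions were chosen for being lower with IL-13 in both pairs, so the order of their libraries follows largely from that choice. The intervals of NFIL3, SPG11 and CRK include 0 in both pairs.

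Summed over STAT6-bound regions, H3K9ac was higher with IL-13 on both backgrounds. At 868 H3K9ac regions over a STAT6 region not listed without IL-13, the summed pileup was 8311 with both agents and 8039 with IL-13, against 8005 with vitamin D and 7703 untreated. Relative to the 16229 unbound regions the log2 ratio was 0.12 higher (interval 0.08 to 0.17) for IL-13 against untreated and 0.11 higher (0.06 to 0.15) for both against vitamin D. Over 4 groups from the lowest to the tallest STAT6 height the plain log2 ratio was 0.04, 0.02, 0.11 and 0.29 for IL-13 against untreated and -0.01, 0.08, 0.12 and 0.25 for both against vitamin D. The tallest of the 4 groups gave the largest ratio in each pair, with intervals of 0.20 to 0.39 and 0.16 to 0.34, and 10.8% of its regions were promoters, against 58.8% of unbound regions. Vitamin D ratios at the 868 regions were 0.02 against untreated and 0.02 for both against IL-13. Regions where STAT6 was listed in untreated cells as well (409) gave 0.38 for IL-13 against untreated and 0.04 for both against vitamin D, and vitamin D gave 0.22 against untreated and -0.12 for both against IL-13. The untreated sum there, 5397, was below 6375 with both agents, 6427 with vitamin D and 6780 with IL-13.

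**Figure D4:**
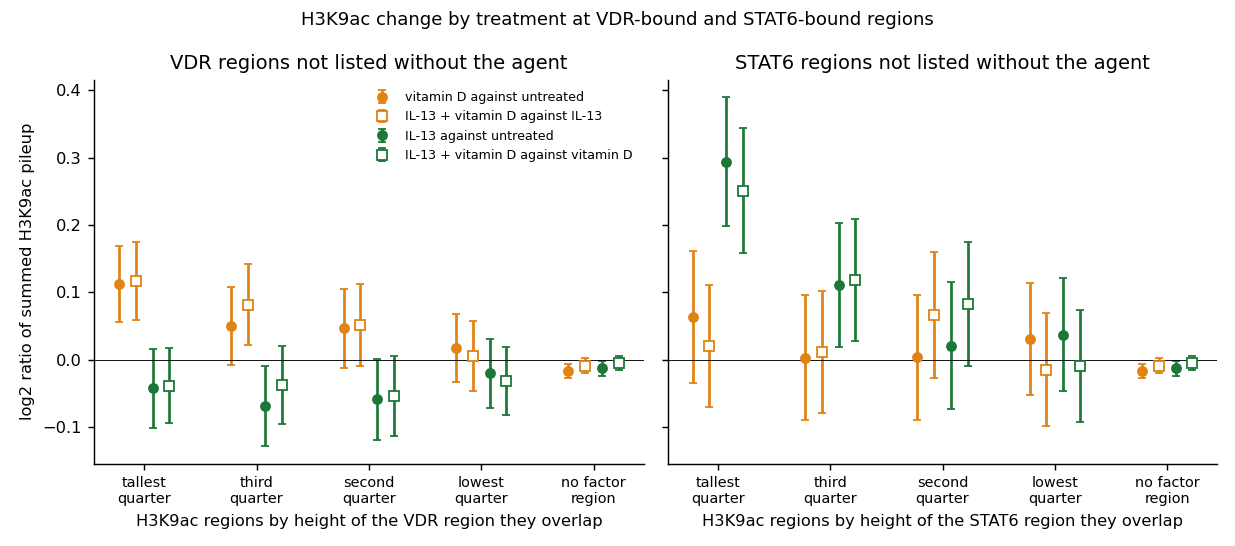
Log2 ratio of summed H3K9ac pileup (vertical axis) at regions that overlap VDR (left) or STAT6 (right), by 4 groups of the factor's height (horizontal axis, tallest first), and at regions with neither. Filled circles are pairs against untreated cells and open squares pairs on the other agent's background, with exact binomial 95% intervals for counting error; both vitamin D pairs are highest at the tallest VDR regions (0.11 and 0.12) and both IL-13 pairs at the tallest STAT6 regions (0.29 and 0.25).

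The shares of STAT6 sites are read from the same lists, and the part of their lengths was not tested. Of 3889 STAT6 regions not listed without IL-13, 31.8% touched an H3K9ac region with both agents and 32.3% with IL-13, against 26.3% with vitamin D and 24.7% untreated. Over the tallest STAT6 regions (934) this was 55.5% with both agents and 56.3% with IL-13, against 40.8% with vitamin D and 38.5% untreated. Over the lowest (1182) it was 22.4% with both agents and 21.9% with IL-13, against 19.2% with vitamin D and 17.6% untreated.

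CAPN14 and CCL26, genes of strong IL-13 response, had little H3K9ac. CAPN14, an esophageal calpain, had no region at its start with both agents, a pileup of 4 with vitamin D and 5 with IL-13, and no region in untreated cells. Its window listed 1339 bases with both agents, 1468 with vitamin D, 2123 with IL-13 and 1446 untreated, although its RNA in the authors' deposited table was 463 RPKM with both agents and 358 with IL-13, against 14.8 with vitamin D and 10.2 untreated. CCL26, an eosinophil chemokine, had no region at its start in any library, and its window listed 1498 bases with both agents and 1513 with IL-13, against 1420 with vitamin D and 864 untreated. CCL26 RNA was 9.73 RPKM with both agents and 7.85 with IL-13, against 0.0173 with vitamin D and 0.0189 untreated in the authors' deposited table. Both windows fell short of the 4 kb needed for the count above.

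With both agents together, some leading windows stood near their level with the single agent and others did not. The CYP24A1 window differed by a log2 of -0.06 between both agents and vitamin D, and the ANO1 window by -0.06 between both agents and IL-13. Both agents against vitamin D gave -0.32 for ETNK2, -0.44 for LOC151475 and 0.78 for RASD2, and both agents against IL-13 gave -0.51 for NFRKB. The CYP24A1 window with both agents against untreated gave 2.39. At the CD14 start both agents gave 12 against 8 with vitamin D, and RNA in the authors' deposited table was likewise higher, by a log2 of 0.65 (adjusted p = 1.42e-26).

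At gene starts the known response genes gave few calls. Calls at starts used 1.5-fold alone, without the pileup minimum of 10, and an unlisted start was taken as 4. For vitamin D against untreated, CYP24A1 was called on a pileup of 8 and SEMA3B on 7, each against an unlisted start. Of 35 VDR targets 29 had a region at the start. For vitamin D against untreated 3 were past 1.5-fold higher (CYP24A1, SEMA3B and BCL6) and 1 lower (CLDN7), where 7.21% of 12405 marked starts were higher and 9.18% lower. For both agents against IL-13, 4 were higher (CD14, CAMP, CEBPB and DUSP10) and 2 lower (EMP1 and G0S2), where 6.44% of 12485 were higher and 8.98% lower. For both agents against untreated 7 were higher and 2 lower, where 8.85% of 12411 were higher and 7.49% lower. No target passed in both vitamin D pairs, where 0.557% of 12921 starts were higher and 1.02% lower. The median log2 of the 29 was 0.29 and 0.21, against -0.03 and -0.03 over all starts. SEMA3B, a secreted semaphorin, had pileups of 6 with both agents and 7 with vitamin D and none listed otherwise, and DUSP10, a MAP kinase phosphatase, had 14 with both agents and 16 with vitamin D, against 9 with IL-13 and 11 untreated.

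Of 25 IL-13 response genes 13 had a region. For IL-13 against untreated 4 were past 1.5-fold higher (ANO1, CISH, SOCS3 and HAS3) and 2 lower (CTSC and TGM2), where 9.01% of 12381 starts were higher and 7.66% lower, and for both against vitamin D 4 were higher (ANO1, HAS3, TGM2 and TSLP) and 1 lower (CD44), where 8.51% of 12484 were higher and 7.13% lower. ANO1 and HAS3 were higher in both pairs, where 0.929% of 12921 starts were higher and 0.596% lower. The ANO1 calls rest on a pileup of 6 against unlisted starts taken as 4. HAS3, a hyaluronan synthase, had pileups of 12 with both agents and 16 with IL-13, against 8 with vitamin D and 11 untreated (log2 0.59 and 0.63), and RNA of 21.8 RPKM with both agents and 13.5 with IL-13, against 9.87 with vitamin D and 5.83 untreated in the authors' deposited table. The list's median was 0.30 and 0.40, against 0.05 and 0.05 over all starts. SOCS3, an inhibitor of JAK signalling, had 9 with both agents and 13 with IL-13, against 9 with vitamin D and 6 untreated, so it passed in the first pair and not in the second. CTSC, a lysosomal protease, had 10 with both agents, 11 with vitamin D, 4 with IL-13 and 14 untreated. CTSC RNA was 316 RPKM with both agents and 326 with IL-13, against 113 with vitamin D and 138 untreated in the authors' deposited table, so its mark did not stand in the order of its RNA.

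**Figure D5:**
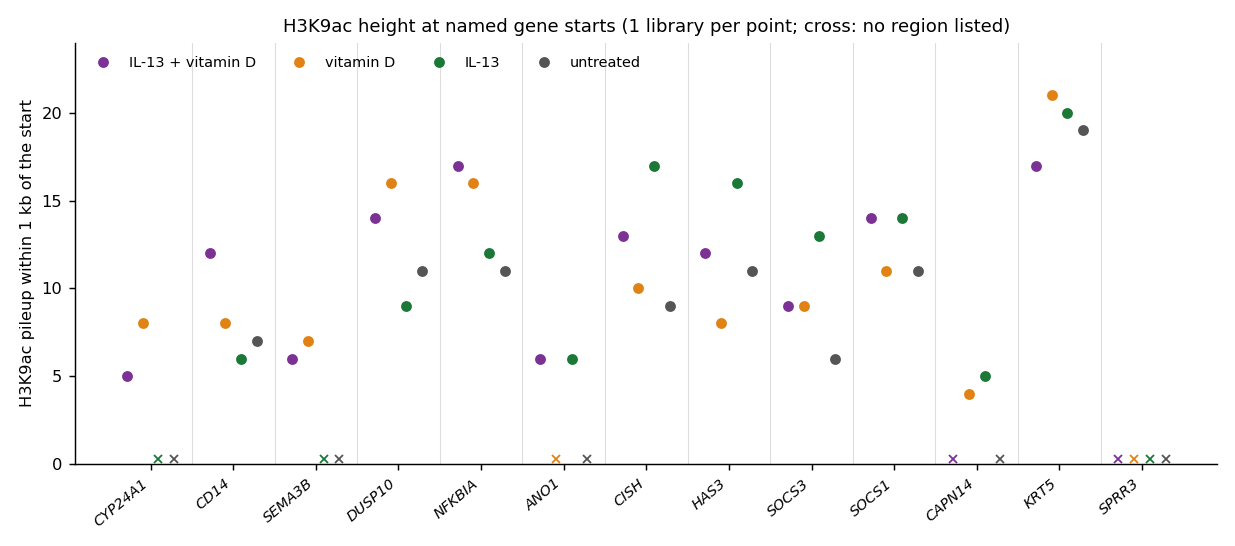
H3K9ac pileup within 1 kb of the start (vertical axis) of 13 named genes (horizontal axis), 1 library per point; a cross marks a library with no region listed. CYP24A1 and SEMA3B had a region with vitamin D and with both agents only, ANO1 with IL-13 and with both agents only, KRT5 stood at 17 to 21 in all 4, and SPRR3 had none.

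Other lists gave few calls at gene starts. The enzymes and readers of H3K9ac were marked at 15 of 15 starts, with 0 higher and 3 lower for vitamin D against untreated, 1 and 2 for both against IL-13, 0 and 2 for IL-13 against untreated, and 1 and 2 for both against vitamin D; over all starts 7.21% were higher and 9.18% lower in the first of these. Vitamin D metabolism genes were marked at 11 of 14 starts, IL-13 receptor, JAK and STAT genes at 14 of 18, NF-kappaB response genes at 16 of 18, interferon response genes at 16 of 20 and immediate early and stress genes at 18 of 19. VDR itself had pileups of 9 with both agents, 10 with vitamin D, 10 with IL-13 and 12 untreated, and STAT6 had 19 with both agents, 18 with vitamin D, 17 with IL-13 and 13 untreated.

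Genes whose RNA was at least 2-fold higher had more H3K9ac at starts and in windows, though the start interval for IL-13 against untreated includes 0. For 150 genes higher with vitamin D against untreated in the authors' deposited table (adjusted p under 0.05), the 105 with a marked start had a summed pileup of 1076 with vitamin D against 915 untreated, a log2 of 0.20 after scaling (interval 0.07 to 0.33). Of the 74 with a tested window, 65 lay above 0, with a median log2 of 0.33. For 94 genes higher with IL-13 the start gave 0.17 (interval -0.01 to 0.35) over 63 genes, and the windows a median of 0.44, with 22 of 24 above 0. All 63 starts were listed with IL-13 but only 50 in untreated cells, and an unlisted start was taken as 4. For 122 genes higher with both agents against vitamin D in the authors' deposited table the start gave 0.19 (0.03 to 0.34) and the windows 0.58, with 24 of 26 above 0. For 213 genes higher with both agents against untreated the values were 0.21 (0.10 to 0.32) and 0.51, with 66 of 75 above 0. Genes within 1.2-fold in RNA had window medians between -0.05 and 0.04.

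Genes whose RNA was at least 2-fold lower differed less. At starts the log2 was -0.16 (interval -0.44 to 0.11) with vitamin D over 30 genes, 0.09 (-0.27 to 0.46) with IL-13 over 17, -0.10 (-0.38 to 0.17) with both against vitamin D over 31 and -0.10 (-0.26 to 0.06) with both against untreated over 87. All 4 intervals cross 0. Their windows had a median of -0.16 with vitamin D (3 of 10 above 0), -0.14 with IL-13 (4 of 15), -0.18 with both against vitamin D (7 of 25) and -0.13 with both against untreated (14 of 49). Across genes, which share libraries and are not independent replicates, RNA and H3K9ac log2 ratios had a Pearson r of 0.08 to 0.09 at starts (10129 to 10160 genes) and of 0.29 to 0.36 in windows (4408 to 4424 genes). These comparisons share control libraries, so their values are given side by side.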

How the data were processed

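H3K9ac was measured in 4 ChIP-seq libraries, 1 per treatment. The submitters' processing notes name MACS2, Bowtie, STAR, SAMtools and Trim Galore with the builds hg19 and GRCh37; settings, and whether peaks were called against a control library, are not given. Per the labels' protocols, fixation was with paraformaldehyde and shearing with a Covaris instrument, and an automated device ran the immunoprecipitation. The pileup is a signal deposited by the authors per summit, per the file headers, and was not scaled to a common depth in the histone libraries; the VDR list with vitamin D had 0.0955% whole pileups and is read as scaled. The authors also deposited fold enrichment, a ratio, and significance as −log10 of p and q. RNA tables hold, per the file headers, 1 RPKM value per group from 3 samples, with the authors' deposited log2 fold changes and p-values. RPKM does not give depth, so RNA depth is unknown. The fourth RNA table is named for IL-13, yet all 23533 of its first RPKM values equal the vitamin D values, so it was used as both agents against vitamin D. 278 rows on alternate sequences were left out, which left 23253 genes.

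Summits were merged by chromosome, start and end, and regions of different libraries by 1 shared base. Rows without a q value, all mitochondrial, were left out. The background pileup of a library was solved from each summit's pileup and fold enrichment. Log2 ratios used the highest summit, scaled by the median ratio at regions in all 4 libraries. No test between treatments was made. The share of a set is set beside the share of all features tested. Binding sums used regions with a mean pileup of 6 to 50. Gene starts were taken with 1000 bases either side. Intervals are exact Clopper-Pearson 95% intervals and cover counting error only, since stacked fragments are not independent molecules. The calling steps were tested on simulated data. Named regions were the 12 highest and 12 lowest by the mean of an agent's 2 log2 ratios among those past 1.5-fold in both, named by the nearest gene start within 100 kb, the 10 tallest and 10 widest untreated regions, list members with the largest ratios, and CYP24A1, CD14, CAPN14 and CCL26; other genes were chosen after their values were seen. The members and gene lists were chosen with earlier results of these data known. The window measure (bases listed within 50 kb of a gene, divided by the library's listed bases, for genes with a mean of 4 kb over the 4 libraries) and its alternatives were chosen after seeing the data. Python 3.11.15, pandas 2.3.3, numpy 2.4.6, SciPy 1.17.1 and matplotlib 3.10.9 were used.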

Additional observations from a re-analysis of the deposited data

Results flagged for a closer look

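The H3K9ac lists also held mitochondrial rows without a q value, which entered no comparison. Their highest pileup was 40 over 45 rows with both agents, 44 over 45 rows with vitamin D, 54 over 46 rows with IL-13 and 40 over 50 rows in untreated cells. These heights lie above the nuclear medians of 6 to 7, and no control library was at hand to set them against. Their source was not tested.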

How the results depend on the processing

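No paired analysis was possible because each treatment had 1 library and the results come from no test. Of the recomputed values, 57 stayed close (counts within 1.5 times) and 60 moved. Only the binding and RNA ratios could change sign, and none of them did. Counts and shares carry no sign, but the split between higher and lower turned in some cases. Windows with IL-13 were 33 higher and 11 lower in the main setting, and 24 and 34 without division by library bases. Window counts moved by over 1.5 times in 23 cases and by less in 5, region counts of 1 comparison in 14 and 26, and region counts in both pairs of an agent in 17 and 7. The cause was not tested. Scaling by the background ratio gave 3797 calls for IL-13 against untreated, 36 higher and 144 lower for vitamin D in both pairs, and 20 and 243 for IL-13 in both pairs. Fold enrichment gave 51 lower for IL-13 in both pairs. A −log10 q of at least 5 gave 1034 calls for both against IL-13, 1327 for IL-13 against untreated and 1046 for both against vitamin D, with 27 higher and 48 lower for vitamin D in both pairs and 48 and 26 for IL-13. A 2-fold limit gave 529 calls for vitamin D against untreated, 468 for both against IL-13, 514 for IL-13 against untreated, 483 for both against vitamin D and 533 for both against untreated, and 9 higher and 2 lower for vitamin D in both pairs and 5 and 1 for IL-13. A pileup of at least 20 gave 64 calls for vitamin D against untreated, 54 for both against IL-13, 68 for IL-13 against untreated, 46 for both against vitamin D and 59 for both against untreated, and 2 higher and 1 lower for vitamin D and 1 and 0 for IL-13.

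With a −log10 q of at least 5, 57.8% of regions lay at gene starts, 71.8% on H3K4me3 and 98.7% on H3K27ac; with an overlap of at least 50% of the H3K9ac region required, 48.1% lay on H3K4me3 and 84.0% on H3K27ac. With all STAT6 regions the IL-13 against untreated difference was 0.24. For windows higher with vitamin D, 25 kb gave 16, 100 kb 53, a minimum of 2 kb 87, of 8 kb 7, no division by library bases 55 and 2-fold 2; for windows lower with vitamin D, 100 kb gave 4, 2 kb 29, 8 kb 0, no division 0, a −log10 q of 5 gave 4 and 2-fold 0. For windows higher with IL-13, no division gave 24, 25 kb gave 17, 2 kb 86, 8 kb 13 and 2-fold 6; for windows lower with IL-13, 25 kb gave 7, 100 kb 20, 2 kb 59, 8 kb 0, no division 34, a −log10 q of 5 gave 30 and 2-fold 0. Pileups of 4 to 8 at most regions limit what a single region can show at this depth.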
